A study of Mus musculus with 2 samples.

Results

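This report describes 10 genes of vascular calcification and cartilage-like change in the mouse abdominal aorta, *Sox9*, *Runx2*, *Bmp2*, *Mgp*, *Enpp1*, *Alpl*, *Acan*, *Comp*, *Chad* and *Tnfrsf11b*, in vascular smooth muscle cells (VSMCs), fibroblasts and vascular endothelial cells (VECs). They were chosen by symbol from the 33696 genes counted, and all 10 were found once in both libraries. Abdominal aortas came from male C57BL/6J mice of 5 months on day 28, given either normal saline (Control) or an infusion of angiotensin II at 1500 ng/kg/min from a minipump, and 0.9% NaCl with 0.2% KCl in the water they drank (AngII+HS), a regimen used to produce abdominal aortic aneurysm. Each condition gave 1 single-cell RNA library. The series design gives a pool of 5 mice for each, whereas the extraction protocol in the labels speaks of a single Control mouse and a pair of treated ones, so the number of animals behind each library is not settled.

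Arteries calcify when the balance between mineral formation and its inhibitors shifts, and VSMCs can then take up features of bone or cartilage cells. SOX9 and RUNX2 are the transcription factors that direct cartilage and bone formation, and BMP2 is a secreted signal upstream of both. Aggrecan (*Acan*), cartilage oligomeric matrix protein (*Comp*) and chondroadherin (*Chad*) are matrix proteins of cartilage. Matrix Gla protein (*Mgp*), the pyrophosphate-producing enzyme ENPP1 and osteoprotegerin (*Tnfrsf11b*), a decoy receptor for RANK ligand, restrain calcification or bone turnover, while tissue-nonspecific alkaline phosphatase (*Alpl*) hydrolyses pyrophosphate.

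After filtering, 10269 Control cells with 75294050 unique molecular identifiers (UMIs, 1 per captured RNA molecule) and 19734 AngII+HS cells with 80445643 UMIs remained. Clusters were named from marker genes, and VSMC, fibroblast and VEC mean clusters that carry those markers. There were 5083 and 681 VSMCs in the Control and AngII+HS libraries, with a median of 9976 and 8721 UMIs. Fibroblasts numbered 2621 and 4837, with medians of 3193 and 5182 UMIs, and VECs 837 and 1202, with medians of 4271 and 3951.5 UMIs. All 7 VSMC markers were detected in VSMCs, and their summed level there was 28672 and 39201 UMIs per 1000000 UMIs (CPM), against 913 to 1166 CPM in fibroblasts and 777 to 882 CPM in VECs. Each library's barcode list is as long as the matrix of the other library. Matrices were assigned by their recorded sample, and a swap of the matrices would reverse every direction below. The matrix taken as Control had 49.5% VSMCs, 4.70% macrophages and 0.964% neutrophils, and the one taken as AngII+HS had 3.45%, 22.2% and 23.6%. The study reported a smaller VSMC proportion and larger macrophage and neutrophil proportions in its AngII+HS group, the same order as here. A swap was not tested further. The 2 barcode lists share 67 barcodes, which is 0.585% of the shorter list.

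Values are CPM of UMIs summed over the cells of a type, given as Control and then AngII+HS. Ratios are log2 of AngII+HS over Control. No test between conditions was possible with a single library of each, and the 95% intervals in brackets (exact Poisson for levels, exact conditional binomial for ratios) cover counting error only, not the spread between mice. A gene is called higher or lower when the ratio was at least 2-fold and both libraries together held at least 20 UMIs in that cell type. T cells and B cells, with medians of 3770 and 2132 UMIs, are given beside the 3 cell types as cells that should lack most of these genes, so that RNA released from other cells can be read there.

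In VSMCs, 9 of the 10 genes had at least 20 UMIs. *Acan*, *Comp*, *Mgp* and *Tnfrsf11b* were at least 2-fold higher in AngII+HS, so 4 genes were higher, where 5.95% of all 15550 genes with enough UMIs were. *Bmp2* and *Alpl* were at least 2-fold lower, so 2 genes were lower, where 13.3% of all genes were. The median log2 ratio of the 9 genes was 0.91, against -0.07 over all genes. In fibroblasts all 10 genes had enough UMIs. There *Acan*, *Comp*, *Chad* and *Tnfrsf11b* were higher, 4 of 10 against 8.75% of 16163 genes, and *Bmp2* alone was lower, against 8.13%. The median ratio of the 10 genes in fibroblasts was 0.68, against -0.12 over all genes. In VECs, *Runx2* and *Tnfrsf11b* were higher, 2 of 9 against 8.22% of 13147 genes. *Mgp*, *Enpp1* and *Chad* were lower there, 3 of 9 against 5.96%, and the median ratio was -0.13, against 0.05 over all genes. *Tnfrsf11b* was the one gene called higher in all 3 cell types. The calls in VECs rest on few UMIs for every gene but *Mgp*.

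**Figure D1:**
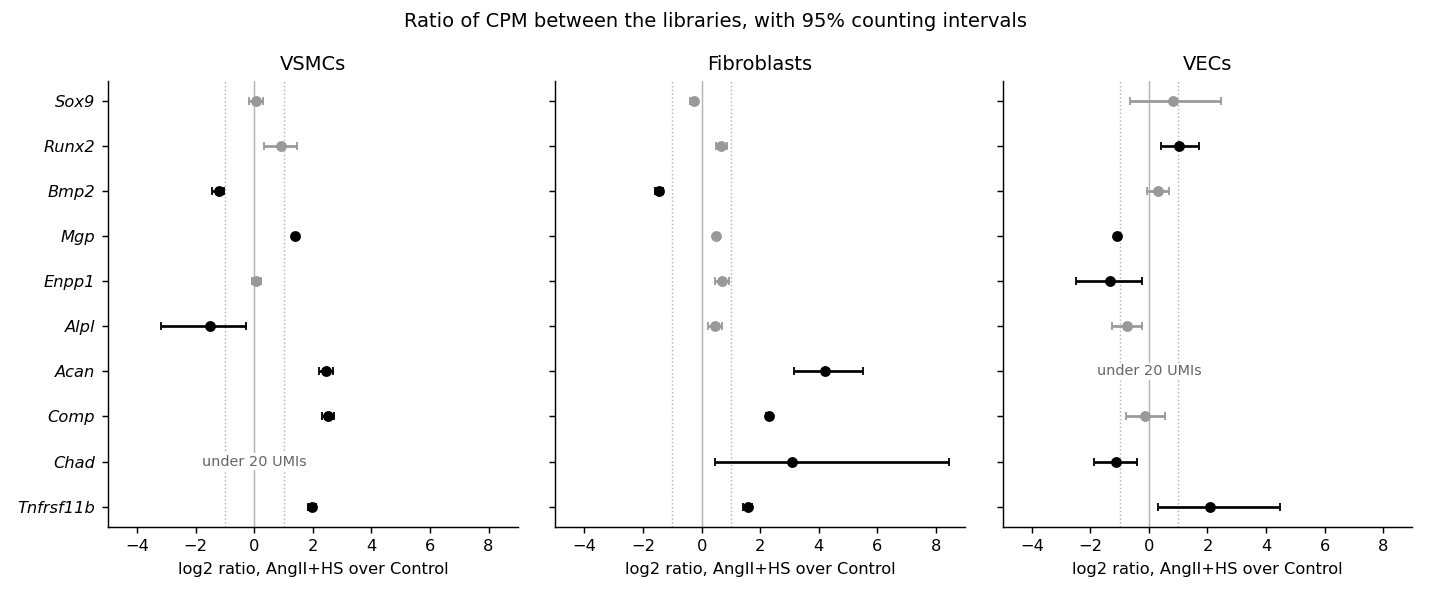
Log2 ratio of CPM in AngII+HS over Control for the 10 genes (rows) in VSMCs, fibroblasts and VECs (panels), with 95% counting intervals. Black points are called (at least 2-fold and at least 20 UMIs), grey points are not, and dotted lines mark 2-fold. *Acan*, *Comp* and *Tnfrsf11b* lie right of the dotted line in VSMCs and fibroblasts, and *Bmp2* lies left of it in both.

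*Sox9*, the master regulator of cartilage formation (ENSMUSG00000000567, chromosome 11, 112673009 to 112678586, GRCm39), differed little between the conditions in VSMCs as a whole. Its level was 27.9 CPM (26.5 to 29.4) in Control and 29.1 CPM (24.97 to 33.7) in AngII+HS VSMCs, a log2 ratio of 0.06 (-0.17 to 0.29). The 2 intervals overlap. Fibroblasts held more *Sox9* than VSMCs in both libraries, with 85.03 CPM (79.4 to 91.0) in Control and 70.3 CPM (67.3 to 73.4) in AngII+HS, and the ratio was -0.27 (-0.39 to -0.16). In VECs the gene was near the limit of detection, with 6 UMIs (1.39 CPM) and 15 UMIs (2.43 CPM), a level that overlaps that of T and B cells (1.08 and 1.82 CPM). In AngII+HS the 15 UMIs came from 1202 VECs, and T and B cells had 9 UMIs in 2095 cells. Whether the endothelial UMIs were released RNA was not tested.

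*Acan*, which encodes the large aggregating proteoglycan of cartilage (ENSMUSG00000030607, chromosome 7, 78702964 to 78764847), had the greatest ratio of the 10 genes in fibroblasts and the second greatest in VSMCs. Control VSMCs held 7.24 CPM (6.53 to 7.997) and AngII+HS VSMCs 40.0 CPM (35.1 to 45.3), so that the AngII+HS library was 5.52-fold higher (log2 2.46, 2.23 to 2.70). The share of VSMCs with an *Acan* UMI was 4.98% in Control and 15.9% in AngII+HS, and 0.669% and 3.24% after each cell was thinned to 1000 UMIs. Both measures were higher in AngII+HS. In fibroblasts, *Acan* went from 7 UMIs (0.706 CPM, 0.284 to 1.45) to 380 UMIs (12.96 CPM, 11.7 to 14.3), which is 18.4-fold with a wide interval (log2 4.198, 3.14 to 5.52). In each library the VSMC level exceeded the fibroblast level. VECs had 0 and 2 UMIs, and T and B cells 0 and 3 UMIs, so no ratio is given there.

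*Comp*, a pentameric glycoprotein that binds collagen fibrils (ENSMUSG00000031849, chromosome 8, 70826192 to 70834716), was foremost a fibroblast transcript. Its level there was 90.5 CPM (84.6 to 96.6) in Control and 443 CPM (436 to 451) in AngII+HS, a 4.90-fold difference (log2 2.29, 2.19 to 2.39). The share of fibroblasts with a *Comp* UMI went from 11.8% to 46.1%, and from 5.78% to 23.9% after thinning. In VSMCs, *Comp* was lower than in fibroblasts in both libraries, at 9.08 CPM (8.29 to 9.93) and 51.6 CPM (46.1 to 57.7), with a ratio of 2.51 (2.30 to 2.72). VECs held 8.31 CPM (5.82 to 11.5) and 7.61 CPM (5.59 to 10.1), which did not differ beyond counting error. T and B cells had 1 UMI (1.08 CPM) in Control, below the endothelial level, and 10.7 CPM (8.05 to 14.1) in AngII+HS. In AngII+HS alone, the endothelial level lay at or below that of cells that should lack the gene. The level in VSMCs of AngII+HS was above both.

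**Figure D2:**
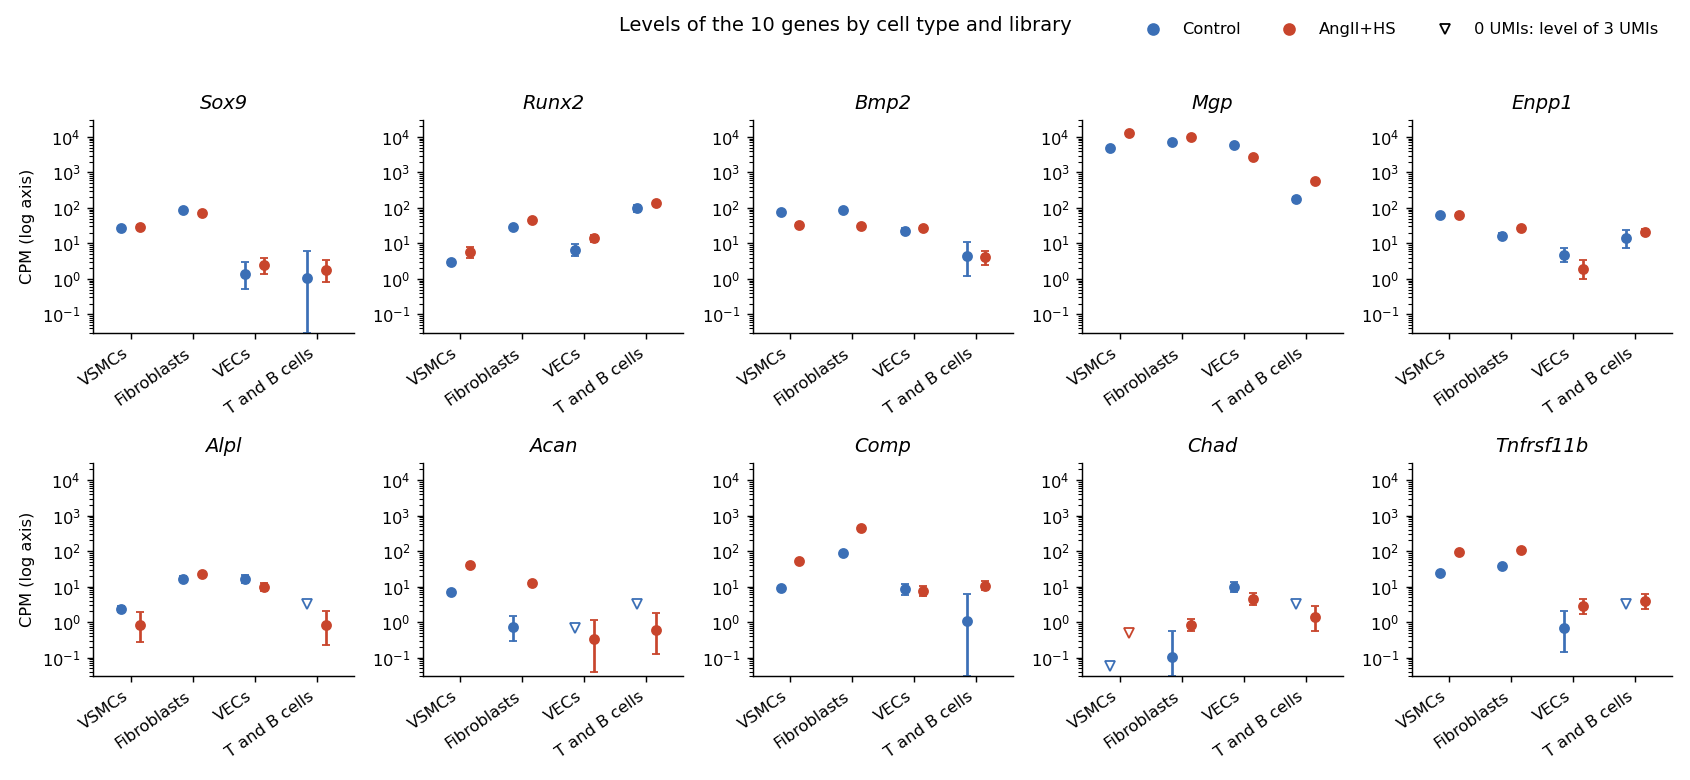
CPM (log axis) of each gene in VSMCs, fibroblasts, VECs, and T and B cells of the Control (blue) and AngII+HS (red) library. Bars are 95% Poisson intervals, cut off where they reach below the axis, and an open triangle marks the level of 3 UMIs where a gene had 0. *Acan*, *Comp* and *Tnfrsf11b* are higher in red in VSMCs and fibroblasts, and *Runx2* is highest in T and B cells, where T cells hold most of it.

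*Chad*, a leucine-rich repeat protein of cartilage matrix (ENSMUSG00000039084, chromosome 11, 94455696 to 94459953), was mostly an endothelial transcript in the Control library. Of its 45 UMIs in Control cells of all types, 43 lay in VECs, and of 63 UMIs in AngII+HS 28 lay in VECs and 25 in fibroblasts. VECs held 9.93 CPM (7.19 to 13.4) in Control and 4.53 CPM (3.01 to 6.55) in AngII+HS, a log2 ratio of -1.13 (-1.87 to -0.41). In VSMCs it was not detected in either library, which allows up to 0.0564 CPM in Control and 0.493 CPM in AngII+HS (3 UMIs). Fibroblasts had 1 UMI and 25 UMIs, a ratio of 3.08 (0.47 to 8.44), and the 25 UMIs lay in 9 cells. Their AngII+HS level of 0.853 CPM (0.552 to 1.26) did not exceed that of T and B cells in the same library, 1.42 CPM (0.571 to 2.92). That level rests on 7 UMIs, and AngII+HS macrophages had 0. Of the 25 fibroblast UMIs, 18 lay in the cluster led by *Comp* (cluster 7). All 9 cells also had *Comp* and 7 had *Acan*, where 2229 and 174 of 4837 fibroblasts in that library did. Whether the fibroblast UMIs were released RNA was not tested.

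The RefSeq promoter table for GRCm38.p6 (250 bases before to 50 after each start site) held entries for 5 of the 10 genes, *Runx2*, *Enpp1*, *Alpl*, *Acan* and *Chad*. 3 short motifs were searched in them, the RUNX core ACCACA on both strands, the SOX core ACAAT on both strands and the TATA box TATAAA on the sense strand. The promoters of *Runx2* and *Chad* are shown, the first for its 3 copies of the RUNX core and the second for its TATA box. Matches not marked below are a SOX core at base -9 of *Runx2*, a SOX core at base 17 of an *Alpl* promoter and a RUNX core at base -144 of *Enpp1*. A SOX core is in 31.0% of all promoters. The *Chad* promoter lies at chr11:94564797-94565096 on the plus strand of GRCm38.p6, and capitals mark its TATA box, which starts 28 bases before the start site. This motif is in 8.32% of the 32851 promoters of this length.
Chad: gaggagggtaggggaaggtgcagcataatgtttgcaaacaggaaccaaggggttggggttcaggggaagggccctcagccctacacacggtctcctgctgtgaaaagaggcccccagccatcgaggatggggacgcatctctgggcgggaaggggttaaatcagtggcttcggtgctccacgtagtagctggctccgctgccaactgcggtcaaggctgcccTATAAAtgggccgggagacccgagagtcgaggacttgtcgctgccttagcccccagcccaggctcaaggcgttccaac
The *Runx2* promoter lies at chr17:44814578-44814877 on the minus strand, and capitals mark 3 copies of the RUNX core, of which 1 starts at base -80 and the others at bases 24 and 32 of the transcript. At least 1 copy is in 16.8% of all promoters, and 3 or more copies are in 0.183% of them.
Runx2: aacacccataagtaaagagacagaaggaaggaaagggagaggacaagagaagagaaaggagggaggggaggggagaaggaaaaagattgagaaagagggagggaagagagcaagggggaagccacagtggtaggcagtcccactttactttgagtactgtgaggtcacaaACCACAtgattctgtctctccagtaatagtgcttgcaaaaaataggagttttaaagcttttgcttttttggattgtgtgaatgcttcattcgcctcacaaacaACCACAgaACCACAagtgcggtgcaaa
The *Acan* promoter held none of the 3 motifs and was 74% G and C, where the median promoter is 52.7%. These matches are letters in a window and say nothing of binding. The libraries count transcripts and do not show which start site was used.

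*Runx2*, the transcription factor required for bone formation and for cartilage maturation (ENSMUSG00000039153, chromosome 17, 44806874 to 45125684), was higher in AngII+HS in all 3 cell types, and past 2-fold in VECs. In VSMCs its ratio was under 2-fold, but past it in 6 of 11 alternatives. Its level in VSMCs was 2.97 CPM (2.52 to 3.47) and 5.59 CPM (3.87 to 7.81), with a ratio of 0.91 (0.33 to 1.45). In fibroblasts, which held the most of the 3 types, it was 28.3 CPM (25.1 to 31.9) and 45.0 CPM (42.6 to 47.5), with a ratio of 0.67 (0.48 to 0.86). VECs had 29 UMIs (6.70 CPM) and 85 UMIs (13.8 CPM), with a ratio of 1.04 (0.42 to 1.70). T cells held more than any of these types, 149.9 CPM (120.4 to 184) and 239 CPM (221 to 258), and neutrophils 95.7 and 71.2 CPM, so T cells are no measure of released RNA for this gene. B cells had 1 UMI in Control and 22 UMIs (10.0 CPM, 6.29 to 15.2) in AngII+HS. In AngII+HS the intervals of VSMCs and VECs overlapped that of B cells, while that of fibroblasts lay above it. In the AngII+HS library, VSMCs, fibroblasts and VECs together carried less than the remaining cells did: fibroblasts held 33.7% of all *Runx2* UMIs, macrophages 19.9% and T cells 16.7%.

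*Bmp2*, the bone morphogenetic ligand (ENSMUSG00000027358, chromosome 2, 133394079 to 133404816), was lower in AngII+HS in VSMCs and fibroblasts. VSMCs held 78.2 CPM (75.9 to 80.6) in Control and 33.5 CPM (29.1 to 38.5) in AngII+HS, 2.33-fold lower (log2 -1.22, -1.43 to -1.02). The share of VSMCs with a UMI was 39.6% and 20.6%, and 6.71% and 2.94% after thinning. Fibroblasts showed the same order, with 87.1 CPM (81.4 to 93.2) and 31.5 CPM (29.5 to 33.5), 2.77-fold lower (log2 -1.47, -1.61 to -1.33). A small, deeply sequenced fibroblast cluster held part of what remained, and without it the fibroblast ratio was -2.12. VECs did not share this difference. Their levels were 22.2 CPM (18.0 to 27.1) and 27.2 CPM (23.2 to 31.6), and 20.8% of the AngII+HS UMIs lay in a single cell. Among the other types, macrophages held 164 CPM in Control, more than VSMCs or fibroblasts, and 28.4 CPM in AngII+HS.

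*Alpl*, the phosphatase that removes the mineralization inhibitor pyrophosphate (ENSMUSG00000028766, chromosome 4, 137469039 to 137524102), was scarce in VSMCs, with 126 UMIs (2.37 CPM, 1.97 to 2.82) and 5 UMIs (0.822 CPM, 0.267 to 1.92). The ratio there was -1.53 (-3.17 to -0.27), and the AngII+HS level equalled that of T and B cells (0.811 CPM). Fibroblasts held 16.5 CPM (14.1 to 19.3) and 22.7 CPM (21.0 to 24.5), with a ratio of 0.46 (0.21 to 0.71). VECs held 16.6 CPM (13.01 to 20.9) and 9.87 CPM (7.55 to 12.7), with a ratio of -0.75 (-1.27 to -0.24). Over whole types, the direction thus differed between fibroblasts and the other 2.

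*Mgp*, the vitamin K-dependent inhibitor of arterial calcification (ENSMUSG00000030218, chromosome 6, 136849433 to 136852821), was found in 99.9% of Control and 99.6% of AngII+HS VSMCs. VSMCs held 4978 CPM in Control and 13023.5 CPM in AngII+HS, 2.62-fold higher (log2 1.39, 1.38 to 1.40). In fibroblasts the levels were 7034 CPM and 9814 CPM, with a ratio of 0.48 (0.47 to 0.49). In VECs they were 5913 CPM and 2801 CPM, 2.11-fold lower (log2 -1.08, -1.11 to -1.05). Taken as whole types, VSMCs had the least of the 3 in Control and the most in AngII+HS, where VECs had the least. *Mgp* was also read in T and B cells, at 177 CPM in Control and 562 CPM in AngII+HS. This is far under the level of each of these types as a whole, though not of every cluster within them.

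*Enpp1*, the enzyme that makes extracellular pyrophosphate (ENSMUSG00000037370, chromosome 10, 24513812 to 24588057), was higher in VSMCs than in fibroblasts and VECs. Plasma cells of AngII+HS (74.0 CPM) and an unnamed cluster led by *Fgf14* (cluster 12, 96.4 and 83.3 CPM) held more. The levels in VSMCs were 61.5 CPM (59.4 to 63.7) and 64.3 CPM (58.1 to 71.0), with a ratio of 0.06 (-0.09 to 0.21), and in VSMC cluster 3 alone the ratio was 0.37 (0.10 to 0.63). Fibroblasts held 16.3 CPM (13.9 to 19.1) and 26.5 CPM (24.7 to 28.4), with a ratio of 0.70 (0.45 to 0.95). Without the deep fibroblast cluster the ratio was 0.41. T and B cells stood at 85.7% and 80.3% of the fibroblast level. VECs had 21 and 12 UMIs (4.85 and 1.94 CPM), below the 14.0 and 21.3 CPM of T and B cells, and some lymphocytes are known to make ENPP1 themselves. The endothelial ratio of -1.32 (-2.48 to -0.23) rests on these 33 UMIs.

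*Tnfrsf11b*, which encodes osteoprotegerin (ENSMUSG00000063727, chromosome 15, 54114015 to 54142075), was higher in AngII+HS in all 3 cell types. VSMCs held 24.1 CPM (22.8 to 25.5) and 94.4 CPM (86.8 to 102.4), 3.91-fold higher (log2 1.97, 1.82 to 2.11). The share of VSMCs with a UMI was 17.2% and 29.96%, and 2.32% and 6.91% after thinning, and 1 cell held 14.5% of the AngII+HS UMIs. Fibroblasts held 37.2 CPM (33.5 to 41.2) and 110.5 CPM (107 to 114), 2.97-fold higher (log2 1.57, 1.41 to 1.73). VECs had 3 and 18 UMIs, a ratio of 2.07 (0.30 to 4.48), and their AngII+HS level of 2.91 CPM lay within that of T and B cells (3.85 CPM, 2.32 to 6.02).

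Fibroblast markers moved with these differences, so the levels in VSMCs and VECs were set beside them. The summed level of 6 fibroblast markers, all of them detected, was 2483 CPM in Control and 5513 CPM in AngII+HS VSMCs, which was 11.4% and 11.5% of the level in fibroblasts of the same library. VSMCs make some of these collagens themselves. The 3 markers that are not collagens, *Dcn*, *Lum* and *Pdgfra*, stood at 0.176% to 1.22% of the fibroblast level in Control VSMCs and at 1.28% to 3.24% in AngII+HS VSMCs. *Comp* in VSMCs stood at 10.0% and 11.7% of its fibroblast level, *Tnfrsf11b* at 64.8% and 85.4%, and *Mgp* at 70.8% and 133%. *Acan* was higher in VSMCs than in fibroblasts, at 308% of the fibroblast level in AngII+HS. When every VSMC with a UMI of *Dcn*, *Lum* or *Pdgfra* was left out, 4089 Control and 348 AngII+HS cells remained, and the ratios were 2.66 for *Acan*, 2.59 for *Comp*, 1.30 for *Mgp*, 1.93 for *Tnfrsf11b* and -1.55 for *Bmp2*. All 5 calls held in these cells. In VECs the fibroblast markers summed to 281 and 714 CPM, and in T and B cells to 153 and 906 CPM. VECs without such a UMI (644 and 643 cells) had a *Runx2* ratio of 0.52 (-0.46 to 1.51) and a *Mgp* ratio of -1.09, so the endothelial *Runx2* call was lost and that of *Mgp* was not. In VSMCs without such a UMI the *Runx2* ratio was 1.17 (0.34 to 1.91), past 2-fold, on 114 and 17 UMIs.

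The 2 VSMC clusters, one led by *Actg2*, *Acta2* and *Des* (cluster 2, 2570 and 442 cells) and one by *Erbb4*, *Unc5c* and *Myocd* (cluster 3, 2513 and 239 cells), showed these differences in the same direction, though not of the same size. *Acan* went from 10.1 to 39.1 CPM in cluster 2 and from 4.38 to 42.3 CPM in cluster 3, with ratios of 1.95 (1.67 to 2.23) and 3.27 (2.82 to 3.72). *Comp* went from 11.6 to 54.6 CPM and from 6.55 to 43.0 CPM. *Tnfrsf11b* had ratios of 2.28 (2.09 to 2.46) and 1.52 (1.24 to 1.80). *Mgp* went from 5040.1 to 12939 CPM and from 4916 to 13269.5 CPM. *Bmp2* was lower in both clusters, at 69.1 against 32.1 CPM and at 87.2 against 37.9 CPM. *Sox9* stood at 24.0 and 23.4 CPM in cluster 2, but at 31.8 and 45.6 CPM in cluster 3, where the ratio was 0.52 (0.15 to 0.87).

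**Figure D3:**
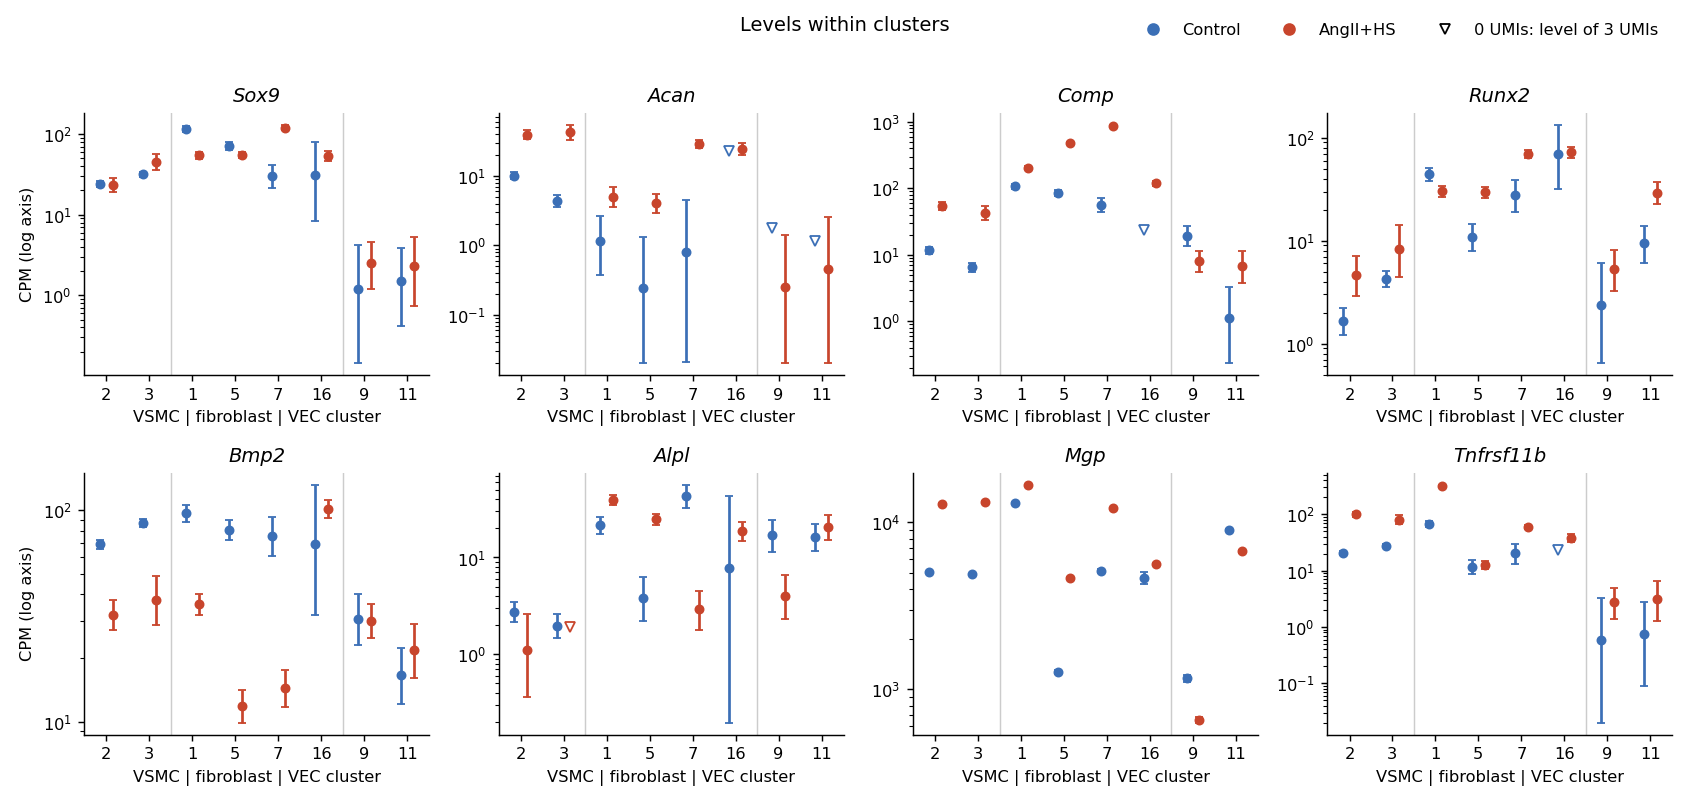
CPM (log axis) of 8 of the genes in each VSMC, fibroblast and VEC cluster (numbered on the horizontal axis) of the Control (blue) and AngII+HS (red) library. Bars are 95% Poisson intervals with a lower end of at least 0.02 CPM, and an open triangle marks the level of 3 UMIs where a gene had 0. *Sox9* is lower in red in cluster 1 and higher in red in cluster 7, and *Comp* is higher in red in fibroblast clusters 1, 5 and 7.

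Fibroblast clusters differed from each other in direction for several of the genes, which the values over all fibroblasts hide. Cluster 1 was led by *Dio2*, *F3* and *Fst* (1501 and 1612 cells), cluster 5 by *Ptx3*, *Sfrp4* and *C3* (826 and 1560 cells) and cluster 7 by *Comp*, *Fmod* and *Mdk* (282 and 1350 cells), although *Comp* had been kept out of the genes used for clustering. *Sox9* was higher in AngII+HS in cluster 7, at 30.1 against 121 CPM with a ratio of 2.01 (1.53 to 2.52). In cluster 1 it was lower, at 115 against 54.7 CPM with a ratio of -1.07 (-1.26 to -0.89). *Comp* was higher in all 3 clusters, from 108 to 203 CPM in cluster 1, from 84.9 to 478 CPM in cluster 5 and from 56.9 to 866 CPM in cluster 7. *Acan* was also higher in each, most of all in cluster 7 with 1 and 198 UMIs (29.1 CPM in AngII+HS). *Runx2* was higher in clusters 5 (10.8 against 29.4 CPM) and 7 (27.6 against 70.2 CPM) and lower in cluster 1 (44.0 against 30.1 CPM). *Tnfrsf11b* was concentrated in cluster 1, where it went from 67.3 to 319.6 CPM, and in cluster 5 it was 11.8 and 12.6 CPM. *Alpl* moved in opposite directions, from 3.84 to 24.7 CPM in cluster 5 and from 43.1 to 2.94 CPM in cluster 7. *Enpp1* had ratios of 0.26 (-0.05 to 0.58) in cluster 1 and 0.40 (-0.36 to 1.23) in cluster 5. In cluster 7 its ratio was 1.60 (0.76 to 2.58), on 12 Control UMIs. *Mgp* was higher in all 3, with ratios of 0.35 in cluster 1, 1.87 in cluster 5 and 1.25 in cluster 7. Its level in cluster 1, 13122.5 and 16726 CPM, was above that of VSMCs in both libraries. Its ratio over all fibroblasts was 0.48.

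The remaining fibroblast cluster (cluster 16), led by *Prg4*, *Timp1* and the division gene *Top2a*, held 12 Control and 315 AngII+HS cells. Its AngII+HS cells held 119 CPM of *Comp*, 24.5 CPM of *Acan*, 37.9 CPM of *Tnfrsf11b* and 53.8 CPM of *Sox9*. Cluster 7 was 10.8% of the Control fibroblasts and 27.9% of those in AngII+HS, and cluster 1 was 57.3% and 33.3%. The level over all fibroblasts therefore joins levels within clusters and the mix of clusters.

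Among VECs, the mix of clusters differed between the libraries. Cluster 11, led by *Cytl1*, *Gja5* and *Bmx*, genes of arterial endothelium among them, was 59.3% of the Control VECs and 32.7% of those in AngII+HS, and the rest were cluster 9, led by *Fabp4* and *Gpihbp1*, genes of capillary endothelium. *Chad* was in cluster 11, with 43 UMIs (16.3 CPM) and 26 UMIs (11.9 CPM), a ratio of -0.46 (-1.22 to 0.28), while cluster 9 had 0 and 2 UMIs. Within cluster 11 the *Chad* levels thus did not differ beyond counting error. *Mgp* was lower in AngII+HS in both, at 8961 against 6703 CPM in cluster 11 and 1162.5 against 655 CPM in cluster 9, by less than 2-fold in each. Its 2.11-fold difference over all VECs joins these with the change in the mix of the clusters. In AngII+HS the cluster 9 level was little above the 562 CPM of *Mgp* in T and B cells, and below the 960 CPM in neutrophils. CPM depend on the depth of the cells, and T and B cells and neutrophils were shallower than VECs. As counts, cluster 9 held 2612 *Mgp* UMIs in 809 AngII+HS cells. T and B cells held 2774 in 2095 cells, and neutrophils 5965 in 4657 cells. How much of the *Mgp* of cluster 9 was released RNA was not tested. *Runx2* was higher in cluster 11, at 9.48 against 29.2 CPM with a ratio of 1.62 (0.94 to 2.35). *Alpl* was lower in cluster 9 (17.1 against 4.01 CPM) and 16.3 and 20.5 CPM in cluster 11. *Comp* was lower in cluster 9, at 19.5 against 8.03 CPM with a ratio of -1.28 (-2.03 to -0.53). In cluster 11 it had 3 and 15 UMIs, too few for a call.

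An unnamed mural cluster led by *Pln*, *Notch3* and *Higd1b* (cluster 15, 170 and 215 cells) gave a different picture from the VSMCs. The VSMC list scored highest in this cluster, and all 7 VSMC markers were detected. However, 2 of its 10 leading genes were pericyte markers, so it was left unnamed. It held *Acan* at 48.7 CPM (37.8 to 61.7) in Control and 37.2 CPM (26.6 to 50.7) in AngII+HS, so its Control level was above that of Control VSMCs and its intervals overlap. *Mgp* was lower in AngII+HS there, at 4541 against 1177 CPM, as was *Tnfrsf11b*, at 41.5 against 3.72 CPM. Both were higher in AngII+HS in the VSMC clusters.

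**Figure D4:**
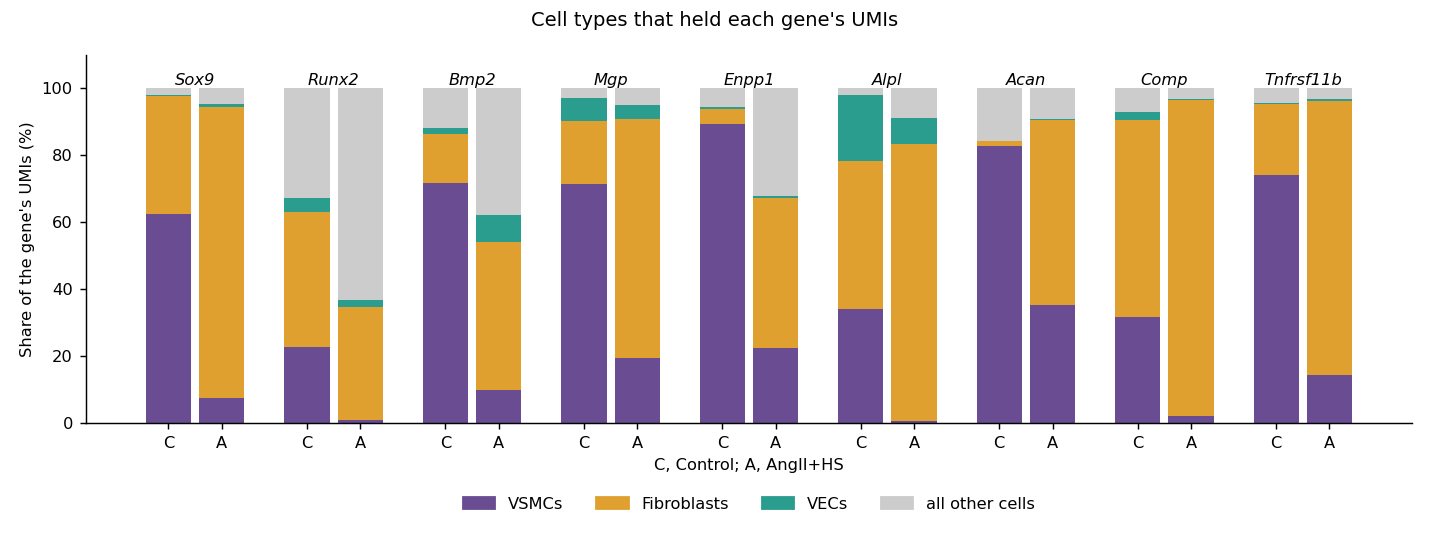
Share of each gene's UMIs (percent of all its UMIs in a library) that lay in VSMCs, fibroblasts, VECs and all other cells, for Control (C) and AngII+HS (A). *Chad* is left out for its low counts. The largest share moved from VSMCs in Control to fibroblasts in AngII+HS for *Sox9*, *Bmp2*, *Mgp*, *Enpp1*, *Acan* and *Tnfrsf11b*.

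The cell type that held most of a gene's RNA was another in each library for 6 of the genes, as the plot of UMI shares shows. VSMCs made up 49.5% of cells in Control and 3.45% in AngII+HS, so these shares join the number of captured cells with the level per cell. VSMCs held 62.4% of the *Sox9* UMIs in Control, and fibroblasts 87.0% in AngII+HS. For *Mgp*, VSMCs held 71.5% in Control and fibroblasts 71.2% in AngII+HS. *Enpp1* lay 89.3% in VSMCs in Control, and 44.7% in fibroblasts in AngII+HS. *Comp* was held by fibroblasts in both, at 58.8% and 94.2%.

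Cells with a UMI of one gene were counted for another. Of the 174 AngII+HS fibroblasts with *Acan*, 77.0% also had *Comp* and 45.4% also had *Sox9*, where 46.1% and 20.03% of all fibroblasts in that library did. Of the 2229 with *Comp*, 6.01% had *Acan*. Of the 108 AngII+HS VSMCs with *Acan*, 18.5% also had *Comp*, 31.5% *Tnfrsf11b* and 22.2% *Sox9*, where 14.5%, 29.96% and 12.8% of all VSMCs did. These shares depend on depth, since a deeper cell shows more of every gene, and they are descriptions of 1 library.

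The genes whose levels most resembled those of each member were sought over 21 cell types and libraries, among 14601 genes (Pearson's r of log2(CPM + 1)). The points share 2 libraries, so r is a description. *Acan* was closest to *Ibsp* (bone sialoprotein, r = 0.93), *Gcnt4* and *Ccn3* (both 0.92). *Comp* was closest to the microfibril gene *Mfap2* (0.90), *C1qtnf7* (0.90) and the BMP antagonist gene *Nbl1* (0.88). *Sox9* was closest to *Nfatc4* (0.88), *Tmem45a* (0.86) and the protease gene *Htra3* (0.85). *Mgp* resembled the basement membrane gene *Col4a3* and the proteoglycan gene *Bgn* (both 0.95) and *Gm30524* (0.94). *Tnfrsf11b* resembled *Ccn5* (0.90), *Rbp4* (0.89) and *Angpt4* (0.89). *Bmp2* resembled *Zfp385a* (0.86), *Slc8a2* and *Errfi1* (both 0.84). *Alpl* resembled *Pcdh19*, *Ror2* (both 0.87) and *Elovl4* (0.84), and *Enpp1* resembled *Prorsd1* (0.81), *Irs2* and *Asb5* (both 0.79). *Runx2* was closest to *Runx2os1* (0.87), which overlaps it on the other strand, as does *Supt3*, and then to *Gramd1b* (0.82) and *Prdx6* (0.79). *Sox9*, *Acan* and *Chad* also overlap a gene on the opposite strand, and *Alpl* one on its own strand that had 0 UMIs. Reads that such pairs could share were not tested.

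The wider set of genes for mineralization, cartilage and bone was 63 genes of the libraries, chosen by function. In VSMCs, 36 had at least 20 UMIs, of which 4 were higher and 5 lower by at least 2-fold (over all genes, 5.95% and 13.3%), with a median ratio of 0.02. In fibroblasts, 47 had enough UMIs, of which 12 were higher and 10 lower (over all genes, 8.75% and 8.13%), with a median of 0.27. In VECs, 29 had enough, of which 4 were higher and 6 lower (over all genes, 8.22% and 5.96%), with a median of -0.09. Cartilage matrix genes, the largest group with 20 of the 63 genes, had 6 of 15 measured members higher and 4 of 15 lower in fibroblasts. The 3 measured osteogenic factor genes gave 0 higher and 1 lower there.

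**Figure D5:**
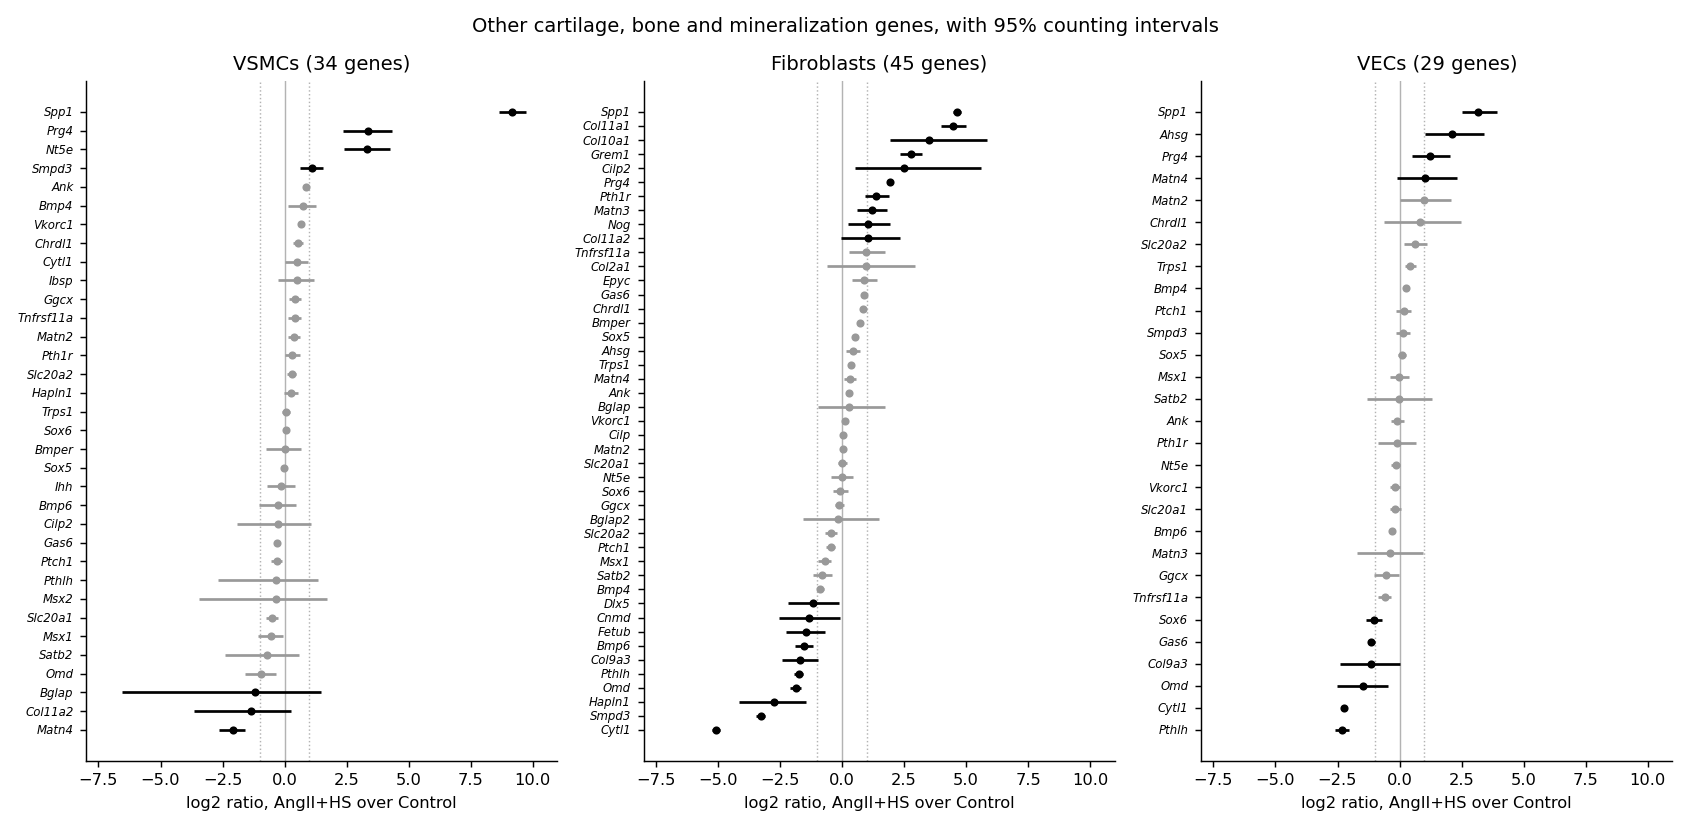
Log2 ratio of CPM in AngII+HS over Control for the other genes of cartilage, bone and mineralization with at least 20 UMIs, sorted by ratio in each cell type, with 95% counting intervals. Black points are at least 2-fold, dotted lines mark 2-fold, and genes with 0 UMIs in a library are left out. Among the genes shown, *Spp1* is at the top in all 3 panels, and *Cytl1* is at the bottom in fibroblasts.

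*Spp1*, which encodes osteopontin, a secreted inhibitor of crystal growth that macrophages also make, had the highest ratio of the set in each cell type among genes with UMIs in both libraries. It went from 0.545 to 310.1 CPM in VSMCs, from 27.9 to 689 CPM in fibroblasts and from 4.62 to 41.8 CPM in VECs. T and B cells had 0 UMIs in Control and 81.7 CPM in AngII+HS. The endothelial level was below theirs, while the levels over all VSMCs and all fibroblasts were above. Of the 20197 AngII+HS fibroblast UMIs, 15305 lay in cluster 16 (3744 CPM), which had 12 Control and 315 AngII+HS cells. *Spp1* was also higher in AngII+HS in clusters 1 (47.0 and 283 CPM), 5 (14.6 and 70.9 CPM) and 7 (7.31 and 279 CPM). The cluster 5 level was below that of T and B cells. The summed level of 7 macrophage markers went from 12.2 to 58.2 CPM in VSMCs, from 42.2 to 292 CPM in fibroblasts and from 23.3 to 84.97 CPM in VECs, and that of 5 neutrophil markers from 5.62 to 125, from 8.67 to 192 and from 11.1 to 192 CPM. Their part in the *Spp1* levels was not tested.

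Among the cartilage collagens, *Col11a1* went from 3.43 to 76.2 CPM in fibroblasts (log2 4.47) and *Col10a1*, the collagen of hypertrophic cartilage, from 3 to 102 UMIs, of which 100 were in cluster 7. A *Col10a1* UMI was found in 0.165% of the AngII+HS fibroblasts. Over all fibroblasts, *Matn3*, a cartilage matrix adaptor protein, was 2.72 and 6.21 CPM and *Prg4*, the joint lubricant proteoglycan, 92.0 and 355 CPM. Of the 182 AngII+HS *Matn3* UMIs, 142 lay in cluster 7, and cluster 1 was lower (3.65 and 1.63 CPM). Of the 10405 AngII+HS *Prg4* UMIs, 6157 lay in cluster 16. *Prg4* was higher in clusters 5 (85.4 and 289 CPM) and 7 (10.6 and 38.7 CPM), but not in cluster 1 (123 and 120 CPM). In the opposite direction, *Cytl1*, a secreted cartilage factor, went from 412 to 12.3 CPM in fibroblasts, of which cluster 1 held the most in Control (904 CPM). It was also lower in VECs, at 4771 against 1022 CPM. *Matn4* was lower in VSMCs, at 23.8 against 5.59 CPM, and *Sox6*, a partner of SOX9, was lower over all VECs, at 45.0 against 21.8 CPM, but by less than 2-fold within each VEC cluster (68.2 against 52.5 CPM in cluster 11 and 8.86 against 5.02 CPM in cluster 9).

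Signals and enzymes of bone moved in both directions in fibroblasts. *Tnfsf11*, which encodes RANK ligand, the protein that osteoprotegerin binds, had 0 UMIs in Control fibroblasts and 1012 UMIs (34.5 CPM) in AngII+HS, at least 114-fold higher against the level of 3 UMIs. Of these, 565 lay in cluster 5 and 384 in cluster 16, and 4 in cluster 1, where *Tnfrsf11b* was highest. T and B cells held 54.9 and 54.1 CPM of it. Over all fibroblasts, the BMP antagonist genes *Grem1* (4.84 and 33.0 CPM) and *Nog* (1.51 and 3.14 CPM) were higher. *Grem1* was higher in clusters 1, 5 and 7, but 598 of its 966 AngII+HS UMIs lay in cluster 16. *Nog* was higher in cluster 1 (0.912 and 8.66 CPM) and lower in cluster 5 (2.64 and 1.91 CPM). The ligand gene *Bmp6* was lower over all fibroblasts (13.4 and 4.61 CPM), as was *Bmp2*. *Bmp6* was lower in cluster 5 (29.0 and 5.93 CPM) but not in clusters 1 (1.60 and 3.01 CPM) and 7 (4.06 and 5.00 CPM). *Pthlh*, the PTH-related peptide gene, was lower in fibroblasts (53.5 and 15.998 CPM) and in VECs (108 and 21.5 CPM), and its receptor gene *Pth1r* was higher in fibroblasts (4.03 and 10.5 CPM). *Smpd3*, a sphingomyelinase needed for normal mineralization, was lower over all fibroblasts (112 and 11.6 CPM) and higher in VSMCs (4.06 and 8.71 CPM). Of its 1114 Control fibroblast UMIs, 1078 lay in cluster 5 (259 and 22.0 CPM). Cluster 7 was also lower (9.75 and 3.53 CPM), and cluster 1 was higher (5.02 and 8.66 CPM). *Omd*, a keratan sulfate proteoglycan of bone, was lower in fibroblasts (37.8 and 10.3 CPM). *Gas6*, a vitamin K-dependent ligand, was lower in VECs, at 280.3 and 128 CPM over all. In VEC cluster 11 *Gas6* was 327 and 213 CPM, and in cluster 9 it was 207 and 81.0 CPM.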

How the data were processed

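The measurements were single-cell RNA counts from 1 Control and 1 AngII+HS library of mouse abdominal aorta. Cell Ranger was run by the authors on GRCm39, with default settings according to the study's methods. They kept the barcodes called as cells and deposited the raw UMI counts of each gene in them without normalization. The header of the deposited matrices names Cell Ranger 8.0.1, whereas the submitters' processing notes name the older build mm10, and gene IDs of the files matched the GENCODE annotation of GRCm39 in 33185 of 33696 cases (98.5%). In this version Cell Ranger counts intronic reads by default. The deposited barcode and gene lists (other) carry names only, and barcode lists were used only to count shared barcodes. Each column of counts belongs to 1 library.

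The thresholds of the study's methods were applied to cells (500 UMIs, 200 genes, and a mitochondrial share below 20%). Doublets were taken as the cells of highest Scrublet score (scanpy 1.11.5), at a rate of 0.8% per 1000 cells (removing 1019 Control and 4826 AngII+HS cells). The libraries were integrated and clustered with Seurat 5.3.0 in R 4.3.3 (Matrix 1.6.5 and SeuratObject 5.2.0) on 2000 variable genes less those of the 10 genes and the wider list, with 30 components and resolution 0.8, giving 23 clusters. A cluster was named from the top-scoring marker list when 10% of its cells or more held each of 3 or more markers. No name was given when any markers of another type among its 10 leading genes equalled or outnumbered its own. Shallow clusters with no own marker among those genes were also to stay unnamed. By these rules 3 clusters stayed unnamed. CPM are sums of UMIs over the cells of a type in a library. Analyses used Python 3.11.15, numpy 2.4.6, scipy 1.17.1, pandas 2.3.3 and matplotlib 3.10.9, with TMM factors from edgeR 4.0.16. The ratios were tested on simulated data.

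Retained cells held 75294050 UMIs in Control and 80445643 in AngII+HS, and intervals cover counting error only. Shares of cells are given as found and with each cell thinned to 1000 UMIs, shallower cells left out. The 10 genes and the lists were chosen with earlier results of these data known. Genes of the wider list are named when at least 2-fold with at least 100 UMIs in that cell type, and for each of the 10 genes with at least 200 UMIs the 3 genes most like it are named. Of 13 alternatives, leaving out a deep fibroblast cluster and leaving out cells with a *Dcn*, *Lum* or *Pdgfra* UMI were chosen after the data were seen. Gene coordinates are those of GENCODE on GRCm39 and promoters those of RefSeq on GRCm38.p6.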

Additional observations from a re-analysis of the deposited data

Results flagged for a closer look

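Several of the genes differed between the libraries in opposite directions in different cell types, with counting intervals on either side of 0. With 1 library per condition none of these differences between cell types was tested. *Mgp* was higher in AngII+HS in VSMCs (log2 ratio 1.39) and fibroblasts (0.48) and lower in VECs (-1.08), so the ratios of VSMCs and VECs lay 2.47 apart and those of fibroblasts and VECs 1.56. *Alpl* was higher in fibroblasts (0.46) and lower in VSMCs (-1.53) and VECs (-0.75), at distances of 1.98 and 1.21. *Enpp1* was higher in fibroblasts (0.70) and lower in VECs (-1.32), 2.02 apart, with 33 endothelial UMIs in all. *Chad* was higher in fibroblasts (3.08) and lower in VECs (-1.13), 4.21 apart, and its fibroblast value rests on 1 Control UMI. These are values over whole types, and some did not hold within clusters. In VEC cluster 11, *Chad* (-0.46, -1.22 to 0.28) and *Alpl* (0.33, -0.30 to 0.97) did not differ beyond counting error. The *Enpp1* intervals included 0 in fibroblast clusters 1 (-0.05 to 0.58) and 5 (-0.36 to 1.23), and VEC cluster 9 had only 4 and 9 UMIs. *Enpp1* kept the direction of its type in fibroblast cluster 7 (1.60) and VEC cluster 11 (-2.24, on 17 and 3 UMIs). *Alpl* was lower in fibroblast cluster 7, but kept the direction of its type in VEC cluster 9 and fibroblast clusters 1 and 5. *Mgp* was lower by under 2-fold in each VEC cluster.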

How the results depend on the processing

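Of 325 ratios of the 10 genes recomputed under 13 alternatives, 273 stayed within their counting interval, 52 moved outside it and 0 called values changed sign. The setting with no minimum of 20 UMIs leaves each ratio as it was, so its ratios stayed within by construction. Resolutions 0.4 and 1.2 gave the same numbers of VECs (837 and 1202) as the report and are little of a check there. The calls of *Acan*, *Comp*, *Mgp* and *Tnfrsf11b* in VSMCs and of *Acan*, *Comp*, *Tnfrsf11b* and *Bmp2* in fibroblasts stayed past 2-fold in every alternative that gave a value. The ratio of *Acan* in VSMCs went down to 1.06 when the libraries were merged without integration. That setting named only 893 Control and 519 AngII+HS cells VSMCs, against 5083 and 681 in the report, so its VSMC ratios do not cover the same cells. *Bmp2* in VSMCs was -0.93 with no doublets removed, and *Alpl* in VSMCs -0.44. The number of the 10 genes past 2-fold in VECs, 5 in the report, was 3 with no doublets removed, 2 with released RNA subtracted and 1 without cells holding a UMI of *Dcn*, *Lum* or *Pdgfra*. With no doublets removed, *Comp* in VECs was 2.04 in place of -0.13 and *Mgp* -0.29. The wider list had 10 genes past 2-fold in VECs, and 18 with no doublets removed, 6 with equal weight per cell, 4 without cells holding fibroblast-marker UMIs and 32 with no minimum of 20 UMIs. In VSMCs it had 9, and 28 with no minimum. The cause of these shifts was not tested, except that the last setting admits more genes. Released RNA was taken as the CPM of each gene in T and B cells, not scaled for depth. In AngII+HS these cells had a median of 2132 UMIs, against 8721 in VSMCs, 5182 in fibroblasts and 3951.5 in VECs. How far this difference in depth enlarged the subtraction was not tested. Subtracting the T and B cell level moved the median of all genes to -0.39 in fibroblasts and -0.25 in VECs. The subtraction gave no value for *Runx2*, for *Alpl* in VSMCs or for *Chad* in fibroblasts. In VECs it also gave none for *Sox9*, *Enpp1*, *Comp* and *Tnfrsf11b*. T and B cells held more *Runx2* (96.9 and 137 CPM) than any of the 3 types. They also held more *Enpp1* (14.0 and 21.3 CPM) than VECs. The loss of these 2 genes from the VEC count was thus fixed in advance and is no measure of released RNA. Genes with under 100 UMIs in a cell type, most of them in VECs, are limited by depth. No paired analysis was possible because each condition has 1 library.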
